A study of Homo sapiens with 2 samples.

Results

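YAP1, WWTR1, TEAD1, TEAD4 and 6 genes they are known to drive, CCN1, CCN2, ANKRD1, AMOTL2, LATS2 and NT5E, were examined in LN229, an established line from a human glioblastoma, as the labels name the cells. The 10 genes were listed by name. They were measured by every probe set that the platform annotation pairs with exactly 1 of their symbols, with CCN1 and CCN2 written there under the older names CYR61 and CTGF. This gave 24 of 54675 probe sets and 10 of 19775 named genes. The microRNA cells carried pSUPER.neo-miR-127-3p, the control cells carried pSUPER.neo without it, and both cultures were grown in DMEM with serum. The labels do not say whether either culture was a clone or a pool of transfected cells. Each group had 1 Affymetrix array, so differences below have no replicates behind them and carry no p-values. The study asked which genes the microRNA regulates in this line.

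YAP, encoded by YAP1, and TAZ, encoded by WWTR1, are transcriptional coactivators without a DNA-binding domain of their own. They bind TEAD factors at gene promoters and enhancers. In the Hippo kinase cascade of MST and LATS, it is LATS that phosphorylates them, which holds them in the cytoplasm and marks them for degradation. The activity of the pathway is therefore set largely on the protein and not on the transcript. Stiff surroundings, cell spreading and low cell density are known to keep both proteins in the nucleus. Several target genes feed back on the pathway, LATS2 and AMOTL2 among them. In glioblastoma TAZ is known for its link to mesenchymal-like tumour states. A microRNA pairs with transcripts mainly through its seed near the 5′ end. The mature miR-127-3p of RefSeq, at chr14:100883035-100883056 on the plus strand of GRCh38.p14, is shown with its seed (bases 2 to 8) in capitals because it is the agent that distinguishes the cultures. The mature microRNA itself was not measured here, so its overexpression was not checked.
hsa-miR-127-3p: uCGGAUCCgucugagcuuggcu

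Median signals were 83.3 (miR-127-3p) and 93.9 (control) in arbitrary units, and the number of arrays limits the precision. A log2 ratio below is log2(signal + 1) with miR-127-3p minus that of the control, less the median of 0.01 over all genes. A gene is represented by its probe set with the highest mean, provided that this mean lay above the median of all probe sets, a signal of about 83. This filter was passed by 11985 genes. Probe sets of the same gene differed with a spread of 0.41 per probe set (SD of log2 ratios, from the 2 brightest probe sets of 5974 genes), and this spread holds no variation between cultures. The arrays differed widely in markers of epithelial cells. Of 13 such markers measured 11 were brighter in the control, and their summed signal was 7795 in microRNA cells against 86729 in control cells, with no marker at 0 on either array. Only 6 passed the filter, all lower with miR-127-3p at their brightest probe sets and 5 past 2-fold, beside 8.67% of all genes. For KRT7, at -0.73, the direction depends on the probe set, since another above the filter was at 0.76. The sums rest on a few bright keratins and EPCAM, and KRT18 alone gave 6906 and 44863. KRT5 (88.3 and 4.52) and GRHL2 (39.8 and 16.1) went the other way, below the filter. EPCAM, an epithelial adhesion molecule, gave 30.2 in microRNA cells against 9181 in control cells, and the keratin KRT8 gave 307 and 16926. Glial and neural progenitor markers differed in both directions. Of 10 listed 7 passed the filter, 1 past 2-fold upward and 3 downward, and their summed signals over all 10 were 11531 and 16114, with none at 0. The shares over all genes were 5.06% upward and 8.67% downward. SLC1A3, an astrocyte glutamate transporter, gave 2689 in microRNA cells against 73.9 in control cells, at least 28.1-fold higher with the array median as a floor. The lower genes were SOX10, with 1262 and 3939, SOX2, with 1656 and 3893, and NES, which encodes nestin, with 893 and 1804. NES was at -1.03 there but at -0.46, within 2-fold, at its other probe set. PDGFRA lay at -0.58 at its brightest probe set but at 1.08 at another above the filter, so this tally depends on the probe set. S100B, at 4559 and 5865, stayed within 2-fold, and GFAP, an astrocyte filament, was below the array median on both arrays. Mesenchymal markers above the filter differed little. Of 10 listed 6 passed it, with none past 2-fold in either direction and a median of 0.12. Below the filter THY1 gave 38.8 in microRNA cells against 160 in control cells and COL3A1 17.5 against 102. COL1A2, with 41.5 and 21.3, and COL6A3, with 12.1 and 11.4, were not lower. Summed signals over all 10 mesenchymal markers were 89161 in microRNA cells and 86623 in control cells. These sums rest mainly on VIM (48866 and 45584) and FN1 (30214 and 33172). The labels name both cultures LN229, and whether they are the same line was not tested, so each ratio below compares these cultures. Fewer cells of a type and less RNA per cell cannot be told apart in such bulk RNA.

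Both coactivators were lower with miR-127-3p. YAP1 gave 1738 in microRNA cells against 4883 in control cells at its brightest probe set, 1009 against 3728 at the next, and 235 against 613 at the dimmest. The miR-127-3p array was the lower at all 3 probe sets. The log2 ratios of YAP1 were -1.50, -1.90 and -1.39 in the same order (mean -1.60, SD 0.26 over probe sets). At the brightest probe set this is 2.83-fold lower, and 4.32% of the 11985 genes had a ratio as low or lower. WWTR1 gave 8806 in microRNA cells against 20775 in control cells at its brightest probe set, which is 2.38-fold lower. Its next probe set gave 2923 and 6911, a log2 ratio of -1.25 like that of the brightest. The third probe set of WWTR1, which carries a suffix for possible cross-matching to other transcripts, went the other way with 478 and 443, a log2 ratio of 0.10. Other probe sets used here carry this suffix too, among them those of EPCAM and KRT8. It is also carried by probe sets of TEAD1 (-0.46), CCN1 (1.91) and LATS2 (0.61, and the one at 12.5 and 57.4). When all 3 probe sets were averaged WWTR1 was at -0.80, within 2-fold. The summed epithelial markers, 7795 and 86729, differ along the same pair of arrays, and their part in the lower coactivator signals was not tested.

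**Figure D1:**
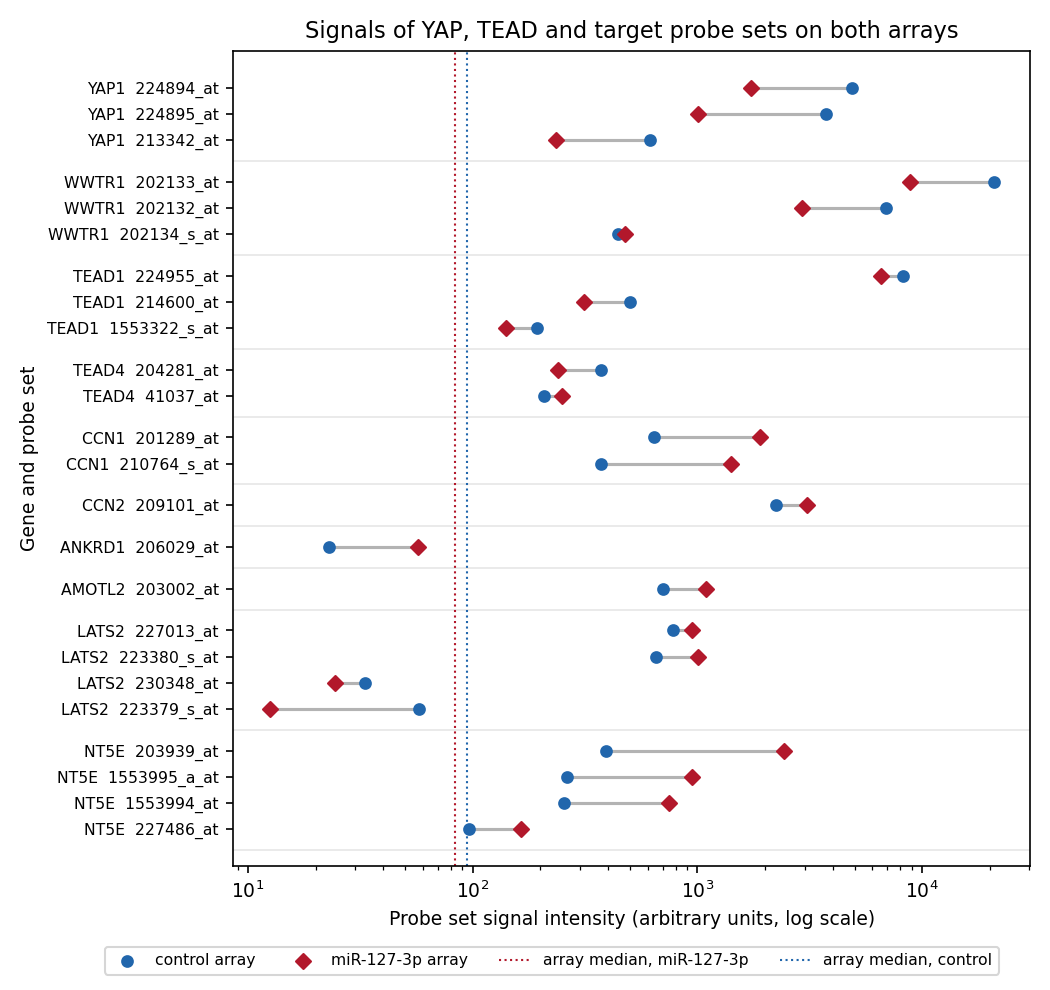
Signal of each of the 24 probe sets on the miR-127-3p array (red diamonds) and the control array (blue circles), in arbitrary units on a log axis, with dotted lines at the array medians of 83.3 and 93.9. The red points lie left of the blue at all 3 YAP1 probe sets and right of them at all 4 NT5E probe sets, and the points of ANKRD1 and of 2 LATS2 probe sets lie below both medians.

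The TEAD factors, which bring the coactivators to DNA, differed less. TEAD1 gave 6567 in microRNA cells against 8187 in control cells, a log2 ratio of -0.33. Its other probe sets gave 313 against 499 and 141 against 193, ratios of -0.68 and -0.46, so the miR-127-3p array was the lower at all 3. None of the 3 reached 2-fold. TEAD4 gave 240 in microRNA cells against 371 in control cells, a ratio of -0.64, but 249 and 208 at its other probe set, a ratio of 0.25. The sign for TEAD4 therefore depends on the probe set, and its mean was -0.20. The remaining family members were measured too. TEAD2 gave 330 and 195, a ratio of 0.74, and TEAD3 gave 240 and 267, a ratio of -0.17, so that none of the 4 TEAD genes passed 2-fold at its brightest probe set.

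Of the 6 target genes 5 passed the filter, and these had a brighter signal with miR-127-3p at the brightest probe set, the opposite side from YAP1 and WWTR1. CCN1, a secreted matrix-associated protein and an early target of the coactivators, gave 1894 in microRNA cells against 641 in control cells. Its second probe set gave 1416 and 373. The log2 ratios were 1.55 and 1.91, or 2.93-fold and 3.76-fold higher, and 1.73% of all genes had a ratio as high as the first. CCN2, the closely related connective tissue growth factor, has 1 probe set, which gave 3072 and 2238. Its ratio of 0.45 stayed within 2-fold and close to the probe set spread of 0.41, and 20.6% of all genes had a ratio as high.

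NT5E had the furthest ratio of the 10 genes at its brightest probe set. It encodes the surface enzyme CD73, which turns AMP into adenosine outside the cell. The brightest NT5E probe set gave 2424 in microRNA cells against 392 in control cells, a ratio of 2.61 or 6.12-fold, and 0.48% of all genes had a ratio as high. The others gave 944 and 262, 749 and 256, and 164 and 95.7. The miR-127-3p array was the higher at all 4, and 3 of them passed 2-fold. The size differed between them, with ratios of 1.83, 1.53 and 0.76 for the dimmer probe sets (mean of all 4, 1.69, SD 0.77). The last was measured close to the array median of the control.

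The feedback genes were brighter with miR-127-3p by less than 2-fold. AMOTL2, an angiomotin family scaffold that holds YAP out of the nucleus, has 1 probe set, which gave 1095 in microRNA cells against 699 in control cells. That is a ratio of 0.64, or 1.55-fold higher, and 12.7% of all genes had a ratio as high. LATS2, the kinase that phosphorylates YAP and TAZ, gave 941 and 778 at its brightest probe set and 1007 and 653 at the next. Their ratios of 0.26 and 0.61 were on the same side, but 31.1% of all genes had a ratio as high as the first. The remaining LATS2 probe sets were below the median on both arrays, with 24.5 and 33.1 and with 12.5 and 57.4, so they give no fold. ANKRD1, an ankyrin repeat cofactor induced by stretch in muscle, was also below the median on both arrays, with 57.2 in microRNA cells against 22.8 in control cells. It was brighter with miR-127-3p at its only probe set, but no fold is given and it is not among the genes counted above the filter.

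**Figure D2:**
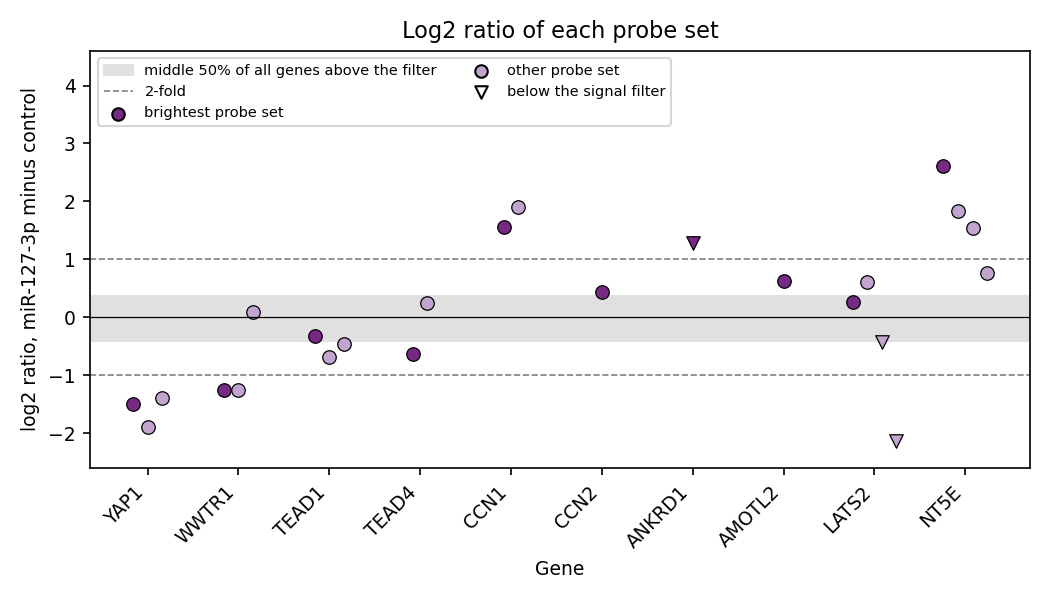
Log2 ratio of each probe set, miR-127-3p minus control, by gene. Dark points are the brightest probe set of a gene, light points the others and triangles those below the signal filter. The grey band holds the middle 50% of all 11985 genes and dashed lines mark 2-fold. YAP1 lies below -1 at all 3 probe sets, CCN1 lies above 1 at both of its probe sets, and TEAD4 and LATS2 have points on both sides of 0.

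Counted over genes, 9 of the 10 passed the signal filter, of which CCN1 and NT5E, 2 genes, were past 2-fold upward in microRNA cells and YAP1 and WWTR1, also 2, downward. The same threshold was passed upward by 5.06% of all genes above the filter and downward by 8.67%. The median over the 9 genes was 0.26, beside 0 over all genes, but it mixes groups that lie apart. The 5 targets above the filter had a median of 0.64, the coactivators lay at -1.50 and -1.25, and the TEAD genes at -0.33 and -0.64. Other results of these arrays were known when the genes were chosen, so the counts are a description.

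Counted over probe sets, 21 of 24 passed the filter. All 10 target probe sets above it were brighter with miR-127-3p, and 5 of them by at least 2-fold, which came from CCN1 and NT5E alone. Among the 6 coactivator probe sets 5 were at least 2-fold lower, and among the 5 TEAD probe sets none passed 2-fold in either direction. Over all probe sets above the filter with 1 gene symbol, 5.28% were past 2-fold upward and 8.08% downward. Probe sets of a gene measure the same RNA and are not replicates of the cultures. Epithelial markers, brighter in the control for 11 of 13, differ along the same arrays as the targets, and their part in the target signals was not tested.

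Promoter windows from RefSeq, 250 bases before to 50 bases after an annotated start on GRCh38.p14, were searched for the TEAD motif GGAATG on both strands. Windows were used for 7 of the 10 genes. TEAD1, TEAD4 and CCN1 were not matched. Of all 35116 windows in the table, 14% held the motif at least 1 time, 1.37% at least 2 times and 0.13% at least 3 times. The window of CCN2 held 3 matches, whose first bases lie 169, 104 and 95 bases before the start, and that of ANKRD1 held 2, at 220 and 128 bases before it. YAP1 held 1 match at 162 bases before the start. The second of 2 AMOTL2 windows held 1 on the opposite strand at 69 bases before, and LATS2 held 1 that begins with base 10 after the start. The window of NT5E and both windows of WWTR1 held none. TEAD factors are known to act at distant enhancers as well, which these windows do not cover.

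The windows with the most matches, CCN2 and ANKRD1, are printed with the gene with the furthest ratio, NT5E, and with YAP1, 5′ to 3′ on the strand of the gene and with motif matches in capitals. They lie at chr6:131951323-131951622 (minus strand), chr10:90921038-90921337 (minus strand), chr6:85449833-85450132 (plus strand) and chr11:102110197-102110496 (plus strand) in that order.
CCN2: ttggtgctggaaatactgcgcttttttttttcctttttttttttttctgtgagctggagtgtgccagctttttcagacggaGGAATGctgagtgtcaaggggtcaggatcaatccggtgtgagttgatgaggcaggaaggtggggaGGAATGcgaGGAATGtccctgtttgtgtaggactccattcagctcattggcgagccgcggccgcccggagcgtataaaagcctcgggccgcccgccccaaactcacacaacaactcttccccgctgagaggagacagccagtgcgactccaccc
ANKRD1: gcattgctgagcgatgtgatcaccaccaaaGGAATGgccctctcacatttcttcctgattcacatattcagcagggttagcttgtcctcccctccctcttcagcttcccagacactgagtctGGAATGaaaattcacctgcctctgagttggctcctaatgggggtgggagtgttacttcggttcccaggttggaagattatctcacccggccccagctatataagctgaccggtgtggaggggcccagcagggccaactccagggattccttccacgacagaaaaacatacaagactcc
NT5E: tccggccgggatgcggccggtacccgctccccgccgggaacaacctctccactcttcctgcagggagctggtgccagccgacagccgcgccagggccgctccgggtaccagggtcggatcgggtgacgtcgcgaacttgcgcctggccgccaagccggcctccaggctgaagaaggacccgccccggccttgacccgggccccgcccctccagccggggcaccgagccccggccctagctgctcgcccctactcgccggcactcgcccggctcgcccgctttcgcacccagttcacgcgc
YAP1: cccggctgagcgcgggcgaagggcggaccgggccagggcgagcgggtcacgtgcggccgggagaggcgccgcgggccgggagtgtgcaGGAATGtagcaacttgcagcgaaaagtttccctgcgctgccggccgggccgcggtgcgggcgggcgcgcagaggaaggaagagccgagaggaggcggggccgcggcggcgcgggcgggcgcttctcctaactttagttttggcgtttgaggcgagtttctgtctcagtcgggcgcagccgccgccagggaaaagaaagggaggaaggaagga
The gene with the most matches was not the one with the furthest ratio. CCN2 with 3 matches had a ratio of 0.45, and NT5E with none had 2.61. CCN1 had no window and ANKRD1 no fold, so whether matches and ratios go together was not tested. A match is a stretch of letters and not a measured binding site, and no binding was measured here.

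**Figure D3:**
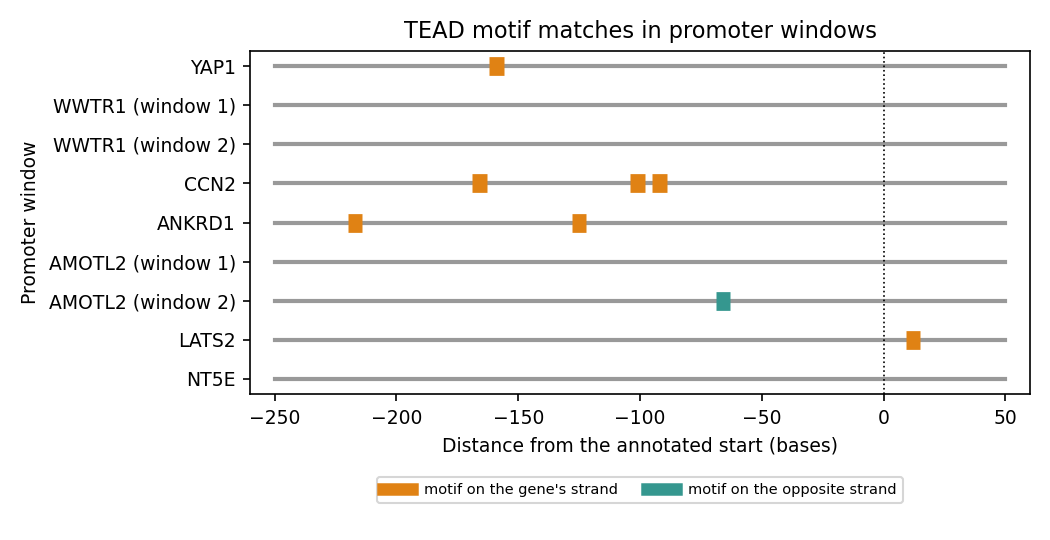
Position of motif matches in 9 promoter windows of 7 genes, in bases from the annotated start (0, dotted line). Orange blocks are matches on the strand of the gene and the teal block is the match on the opposite strand. CCN2 has 3 blocks and ANKRD1 has 2, while NT5E and both windows of WWTR1 have none.

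The Hippo kinase cascade is the upstream machinery that restrains YAP and TAZ. All 12 of its listed genes passed the filter, with 1 past 2-fold downward, none upward and a median of 0.12, beside 8.67% downward, 5.06% upward and a median of 0 over all genes. A share of 1 in 12 is near the background, so nothing is read from it. The lower gene was WWC1, the scaffold KIBRA, which gave 63.5 in microRNA cells against 145 in control cells. With the array median as a floor, WWC1 was at least 1.75-fold lower. LATS1, the partner kinase of LATS2, gave 897 and 685, a ratio of 0.38. The kinases STK3 and STK4, known as MST2 and MST1, had ratios of 0.04 and -0.37 at their brightest probe sets, with STK4 at 0.40 at another, and NF2, which encodes merlin, had 0.40. TAOK3, a kinase upstream of them, came closest to 2-fold on the higher side, with 1143 and 577 and a ratio of 0.97. TAOK1 lay at 0.40 but at -1.21 at another probe set above the filter.

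Scaffolds that bind YAP or LATS stayed within 2-fold at their brightest probe sets. Of 10 listed genes 8 passed the filter, and their median was 0.16. AJUBA, a LIM protein that inhibits LATS and is itself counted among coactivator targets, gave 1530 in microRNA cells against 999 in control cells, a ratio of 0.60. LIMD1, of the same LIM family, gave 337 and 647, a ratio of -0.95, and reached -1.19 at another probe set. AMOTL1, the relative of AMOTL2, lay at -0.26 and AMOT was below the median on both arrays. All 10 polarity and FAT cadherin genes passed the filter, and 1 was lower by 2-fold or more, beside 8.67% of all genes. This was CRB3, an apical polarity protein of epithelia, which gave 93.0 and 231. The median of the 10 was -0.13. The summed epithelial markers differ along the same arrays as CRB3 and WWC1, and their part in these signals was not tested.

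The VGLL cofactors, which bind TEAD as YAP and TAZ do, differed in opposite directions. VGLL3, a vestigial-like protein that binds TEAD, gave 476 in microRNA cells against 68.9 in control cells. With the array median as a floor, VGLL3 was at least 4.99-fold higher. Its second probe set had a ratio of 2.07 on the same side. VGLL4, a repressor of TEAD, gave 2053 and 3749, a ratio of -0.88, and -0.83 at its second probe set. VGLL1 and VGLL2 were below the median on both arrays.

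Further genes of a published YAP and TAZ signature did not all lie on the side of CCN1 and NT5E. Of 16 listed genes 15 passed the filter, 2 past 2-fold upward and 2 downward, with 9 ratios above 0 and a median of 0.40. The background over all genes was 5.06% upward and 8.67% downward. CRIM1, a membrane protein that binds BMPs, gave 2649 in microRNA cells against 1232 in control cells, a ratio of 1.09. The lowest of its 3 probe sets was at 0.79, within 2-fold. ASAP1 and TGFB2 were within 2-fold at their brightest probe sets, at 0.51 and 0.91, but reached 1.56 and 1.07 at others. On the other side IGFBP3, a binding protein of insulin-like growth factors, gave 177 and 1683, a ratio of -3.25. FOXF2, a forkhead factor, gave 289 and 791, a ratio of -1.46. AXL, a receptor kinase, gave 6924 and 5207, a ratio of 0.40, and 2.28 at its other probe set. PTPN14, a phosphatase that binds YAP and is also among the scaffolds above, lay at 0.53.

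**Figure D4:**
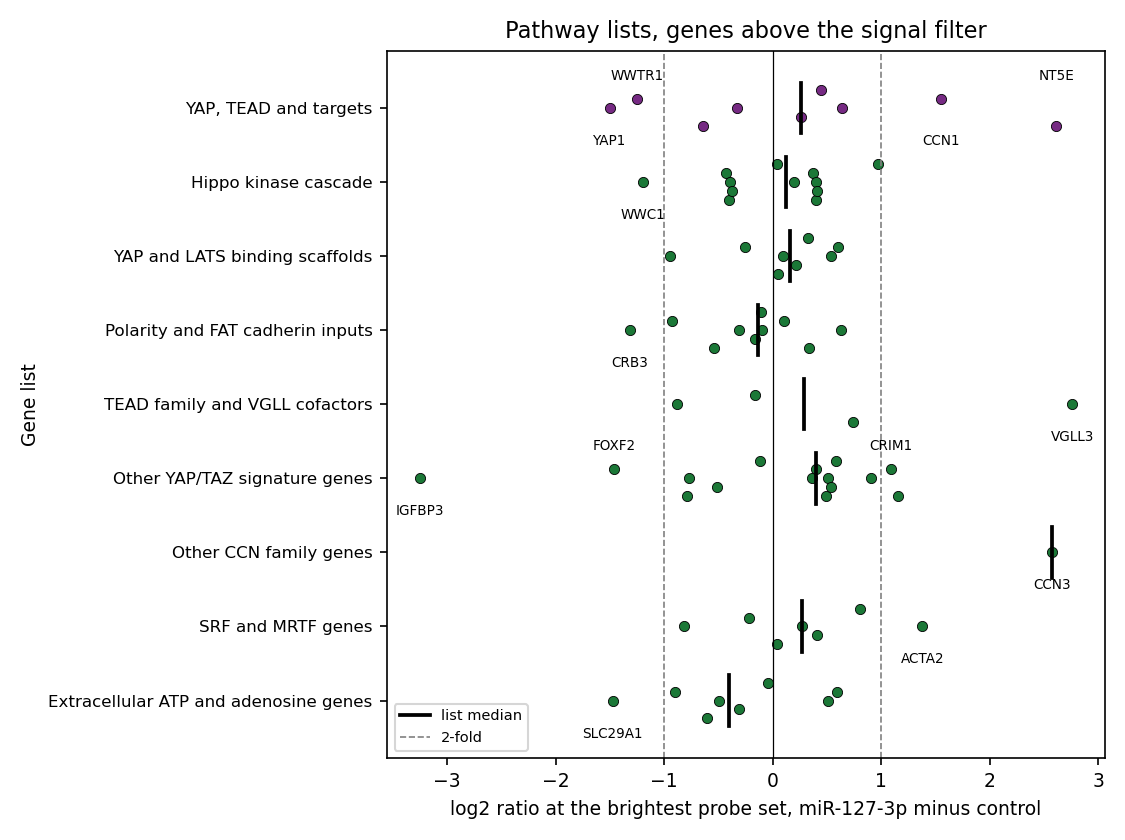
Log2 ratio at the brightest probe set, miR-127-3p minus control, of every gene above the signal filter in 9 lists, with the median of each list as a black bar and dashed lines at 2-fold. Genes past 2-fold are named except for 1 signature gene, and WWC1, VGLL3 and SLC29A1 had 1 array below its median. The Hippo cascade, apart from WWC1, and the scaffolds lie within 2-fold, while the YAP and TAZ signature spreads from -3.25 to past 1.

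The families around CCN1, CCN2 and NT5E were compared. Of the 4 other CCN genes only CCN3 passed the filter, and it gave 866 in microRNA cells against 144 in control cells, a ratio of 2.57, and 2.0 at its other probe set. CCN5, below the filter, went the other way with 5.64 and 141, at least 1.70-fold lower with the array median as a floor. CCN4 and CCN6 were below the median on both arrays. Around NT5E, 8 of 13 genes of extracellular ATP and adenosine passed the filter, with a median of -0.40 and none at least 2-fold higher. SLC29A1, a nucleoside transporter, gave 77.9 and 216 and was at least 2.59-fold lower at its brightest probe set but had a ratio of 0.35 at the other. ADORA2B, an adenosine receptor, gave 3221 and 2237, a ratio of 0.51. ENTPD1, the enzyme CD39 that supplies AMP to CD73, was below the filter with 44.5 and 128. Genes of SRF and its MRTF coactivators were set beside them because CCN1, CCN2 and ANKRD1 are also known to answer to SRF. Of 12 listed 7 passed the filter, with a median of 0.27. ACTA2, smooth muscle actin, was the only one of these past 2-fold, with 1543 and 588 and a ratio of 1.38. Only 1 of its 3 probe sets passed the filter. Among the genes below it, ACTG2 was lower with 29.2 and 100, TAGLN with 30.0 and 67.0 and MYL9 with 3.93 and 71.9. CNN1 was brighter with miR-127-3p, at 14.5 and 8.55. TAGLN, MYL9 and CNN1 were below the median on both arrays. For these lists the share of all genes past 2-fold was 5.06% upward and 8.67% downward. SRF itself gave 210 and 242, a ratio of -0.22, and VCL, vinculin, gave 3831 and 6674, a ratio of -0.81.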

How the data were processed

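RNA of 2 LN229 cultures was measured on 1 Affymetrix array each. Biotin-labelled cRNA was made with a 3′ labelling kit, per the labels' protocols. The values the authors deposited are signal intensities, 1 per probe set and not logged. Which software summarised the probes, and how background was treated, is not given in the sources used here. Scaling was judged from the values: trimmed means (2% at each end) were 500.1 on both arrays.

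Of 54613 non-control probe sets 41091 had 1 gene symbol, 1801 had several and 11721 were unnamed here. Symbols were updated through Entrez identifiers against RefSeq of GRCh38.p14, which matched 99.9%. Signals became log2(signal + 1), probe sets with a mean above the median were kept, and ratios were centred on the median over genes. The pseudocount makes the folds of dim genes smaller. Where the dimmer array was below its median, the fold is a lower limit against that median, which is not a detection call.

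No test was possible with 1 array per group. All members were named. The value of 1 signature gene past 2-fold is not reported here. From other lists, genes past 2-fold and the furthest within it could be named, and others (LATS1, TAOK1, STK3, STK4, NF2, AMOTL1, TEAD2, TEAD3, VGLL1, VGLL2, AMOT, AXL, PTPN14, ENTPD1, ADORA2B, SRF, S100B, GFAP, KRT5 and GRHL2, and in the closing section RASSF1, CSNK1E, BTRC, FBXW11, YES1 and MAP4K1) were chosen after their values were seen. So were VIM, FN1, THY1, COL3A1, COL1A2, COL6A3, PDGFRA, KRT7, CCN4, CCN5, CCN6, ACTG2, TAGLN, MYL9, CNN1, ASAP1 and TGFB2. Members and lists were chosen with earlier results of these data known. With 2 arrays a likeness of patterns across samples cannot be measured. Alternatives changed the threshold (1.5-fold, 3-fold), the filter, the centring or normalization (quantile, loess with span 0.3), the pseudocount (16, 32), the probe set rule and a floor at each array's median. The steps were tested on simulated arrays. Python 3.11.15, numpy 2.4.6, pandas 2.3.3, statsmodels 0.14.6 and matplotlib 3.10.9 were used.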

Additional observations from a re-analysis of the deposited data

How the results depend on the processing

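No paired analysis was possible because each group has 1 array and the labels carry no replicate numbers. The log2 ratios of the 9 genes above the filter kept their sign under all 11 alternatives that recompute them (10 for TEAD4, which did not pass the filter at the 75th percentile). Averaging the probe sets of a gene moved 3 of them by more than the spread of 0.41, WWTR1 to -0.80, TEAD4 to -0.20 and NT5E to 1.68, and left 1 gene at least 2-fold lower. With a 3-fold threshold 1 gene was higher and 0 were lower. With a 1.5-fold threshold AMOTL2 joined the higher genes and TEAD4 the lower, and without a filter ANKRD1 joined the higher. The median over the genes ranged from 0.24 to 0.44. Counts over all genes, 607 higher and 1039 lower, became 1743 and 2167 with a 1.5-fold threshold, 188 and 472 with a 3-fold threshold, 2531 and 3400 without a filter, and 259 and 387 with the filter at the 75th percentile. Signals below the array median limit what can be said of ANKRD1 and of 2 LATS2 probe sets.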

Other observations

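Genes linked to the Hippo pathway beyond the lists above were looked at in 4 further groups, chosen after the files had been read. RASSF adaptors, which bind the MST kinases, all passed the filter, and 1 of 6 was at least 2-fold lower, beside 8.67% of all genes. This was RASSF6, which gave 5.98 in microRNA cells against 1603 in control cells. With the array median as a floor, RASSF6 was at least 19.2-fold lower. RASSF1 gave 522 and 590, a log2 ratio of -0.19. The 14-3-3 proteins hold phosphorylated YAP and TAZ in the cytoplasm. SFN, the epithelial member, gave 173 in microRNA cells against 4770 in control cells at its brightest probe set, a ratio of -4.79, against -0.84 at the probe set nearest to 0 of its 3. At their brightest probe sets the other 14-3-3 genes stayed within 2-fold, as did the casein kinases CSNK1D and CSNK1E and the ubiquitin ligase subunits BTRC and FBXW11, which act in the turnover of both coactivators. The second probe set of FBXW11 was past 2-fold downward, at -1.11. The summed epithelial markers, 7795 and 86729, differ along the same arrays as RASSF6 and SFN, and their part in these signals was not tested.

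Of the STRIPAK phosphatase complex, which removes phosphate from the MST kinases, 7 of 8 listed genes were measured and STRIP2 alone passed 2-fold, with 389 against 189 and a ratio of 1.03, but a second probe set of STRIP2 was at 0.04. That threshold was passed upward by 5.06% of all genes. Among further kinases that reach the pathway, FYN of the SRC family gave 1007 in microRNA cells against 4347 in control cells, a ratio of -2.12, and all 5 of its probe sets lay between -2.64 and -1.86. SRC lay on both sides of 0, with ratios of 0.24 (brightest) and -0.49, and YES1, for which YAP is named, was at -0.0025. Low signals of MAP4K1 gave no fold.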
